A study of Mus musculus with 20 samples.

Results

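Hepa1-6 is a mouse hepatoma cell line of strain C57L. The comparison described here is the drift of untreated Hepa1-6 cells over the opening 3 h of a time course: the 2 arrays of untreated cells at 3 h were set against the 2 arrays of untreated cells at 0 h, which is 4 of the series' 20 arrays. Cells had been washed and placed in medium without growth factors 4 h before the time course began, so the 3 h cells had spent 7 h in that medium and the 0 h cells 4 h, and neither group received TGFb1. The other arrays, used here to estimate the spread and for side-by-side values, were untreated cells at 1, 6 and 10 h and cells given 1 ng/ml TGFb1 at 0, 1, 3, 6 and 10 h, each as biological duplicates. The description calls the treated 0 h cells equivalent to the untreated 0 h cells. The model is 1 established line in culture, so every value is of that line alone.

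RNA was measured on Affymetrix mouse arrays, and a level is a log2 RMA value: a difference of 1 is a 2-fold difference in signal, and array levels are compared for a gene between samples and not between genes. One probe set, that of highest mean over the 20 arrays, stood for each of 18161 genes. A gene is called when limma's Benjamini-Hochberg adjusted p, over all 18161 genes, is below 0.05. The label of the cells was checked on 12 measured hepatocyte and hepatoma markers, of which none was called between 3 h and 0 h. Alb (albumin) averaged 12.01, Afp (alpha-fetoprotein) 12.78, Krt8 12.82 and Krt18 13.41 over the 20 arrays, all above the median of all values, 5.18. Apob at 5.16 and Serpina1b at 3.58 were below that median. These were 2 of the 12. Of the markers of other cells that a liver sample could hold, 8 of 10 endothelial, 6 of 10 macrophage, 5 of 10 stellate and fibroblast and 1 of 6 cholangiocyte genes averaged below it. Among those above it were Dcn, a fibroblast proteoglycan, at 13.42 and the biliary keratin Krt7 at 10.24. Signals of different probe sets are not on one scale, so this is a rough guide to presence only. Among the markers of other cells, Epcam was called higher and Pdgfra lower at 3 h than at 0 h, and none of the others was called. With all probe sets averaged both calls were lost (0.16 for Epcam, -0.28 for Pdgfra), and without single arrays Epcam lost its call in 1 of 4 repeats and Pdgfra in 2. The part of other cells in the results was not tested. The duplicate arrays correlated at r = 0.9968 at 3 h and 0.9971 at 0 h across probe sets. In bulk RNA, a change in the number of cells of a kind and a change in RNA per cell cannot be told apart.

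Cholesterol is built from acetyl-CoA through mevalonate, squalene and lanosterol. Enzymes along this route are switched on together by SREBP2, a transcription factor held in the endoplasmic reticulum with SCAP and the INSIG proteins while sterols are plentiful and released to the nucleus when they run low. SREBP1 does much the same for fatty acid synthesis, and NF-Y, which binds CCAAT, is a known partner of the SREBPs at promoters. Serum is a source of lipoprotein cholesterol and of growth factors for cultured cells.

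Of the 41 gene lists examined, the one of this route had the largest median change, so the promoters of 6 of its genes are shown. Each stretch is the 150 bases before the annotated start in RefSeq's GRCm38.p6 tables, written 5′ to 3′ on the gene's strand; capitals mark CCAAT or its reverse complement ATTGG, and the SREBP-binding letters CACCCCAC, searched on both strands. The 2 motifs did not overlap in these stretches. The stretches of Insig1 and of 2 other annotated Dhcr7 starts held neither motif and are not printed.
Hmgcs1 (chr13:119690201-119690350, plus strand): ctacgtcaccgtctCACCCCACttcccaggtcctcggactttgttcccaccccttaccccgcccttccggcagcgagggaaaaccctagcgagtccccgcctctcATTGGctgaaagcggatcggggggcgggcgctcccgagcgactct
Mvd (chr8:122443423-122443572, minus strand): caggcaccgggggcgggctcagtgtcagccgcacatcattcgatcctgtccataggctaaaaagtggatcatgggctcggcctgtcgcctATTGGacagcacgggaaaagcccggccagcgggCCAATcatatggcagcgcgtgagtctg
Idi1 (chr13:8885456-8885605, plus strand): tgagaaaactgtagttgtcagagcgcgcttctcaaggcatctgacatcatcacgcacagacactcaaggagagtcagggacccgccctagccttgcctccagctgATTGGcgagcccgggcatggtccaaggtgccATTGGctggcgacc
Msmo1 (chr8:64733579-64733728, minus strand): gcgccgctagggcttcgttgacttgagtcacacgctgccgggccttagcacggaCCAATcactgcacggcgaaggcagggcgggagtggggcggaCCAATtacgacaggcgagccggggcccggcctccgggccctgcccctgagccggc
Hsd17b7 (chr1:169969206-169969355, minus strand): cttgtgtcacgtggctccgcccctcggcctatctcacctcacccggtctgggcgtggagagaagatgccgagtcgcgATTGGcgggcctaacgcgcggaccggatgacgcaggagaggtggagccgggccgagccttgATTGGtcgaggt
Dhcr7 (chr7:143830064-143830213, plus strand): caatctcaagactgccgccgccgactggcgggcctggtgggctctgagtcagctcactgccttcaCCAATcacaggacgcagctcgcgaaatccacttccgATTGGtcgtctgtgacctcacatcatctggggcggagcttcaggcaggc

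CCAAT letters stand at 2 places in each of these stretches except that of Hmgcs1, which holds them at 1 place beside the only CACCCCAC match among them. Promoters were found for 16 of the 20 measured genes of the sterol list, in 19 windows of 300 bases (250 before to 50 after the start). CCAAT letters were in 84.2% of those windows, against 37.4% of all 32851 windows in the table; other lists had high shares as well, 94.4% in the unfolded protein response list and 66.7% in the G1/S list. CACCCCAC was in 5.26% of them, against 2.87% of all windows, and the E-box CACGTG in 21.1%, against 7.15%. These are matches of letters, not measured sites of binding.

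Between 3 h and 0 h, 1484 genes were called, 8.17% of those tested: 901 were higher at 3 h (4.96%) and 583 lower (3.21%). Among genes above the median of all values 12.7% were called, and counts of list members below are to be read beside these shares. Most changes were small. At least 2-fold differences were reached by 12 genes that rose and 7 that fell, and a gene's log2 difference typically carried an SE of 0.125 (median). The median difference of all genes was 0.02. Leaving out any 1 of the 4 arrays reduced the count of calls to between 621 and 839, and for many of the genes named below the text says whether their call was lost in one of these 4 repeats.

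**Figure D1:**
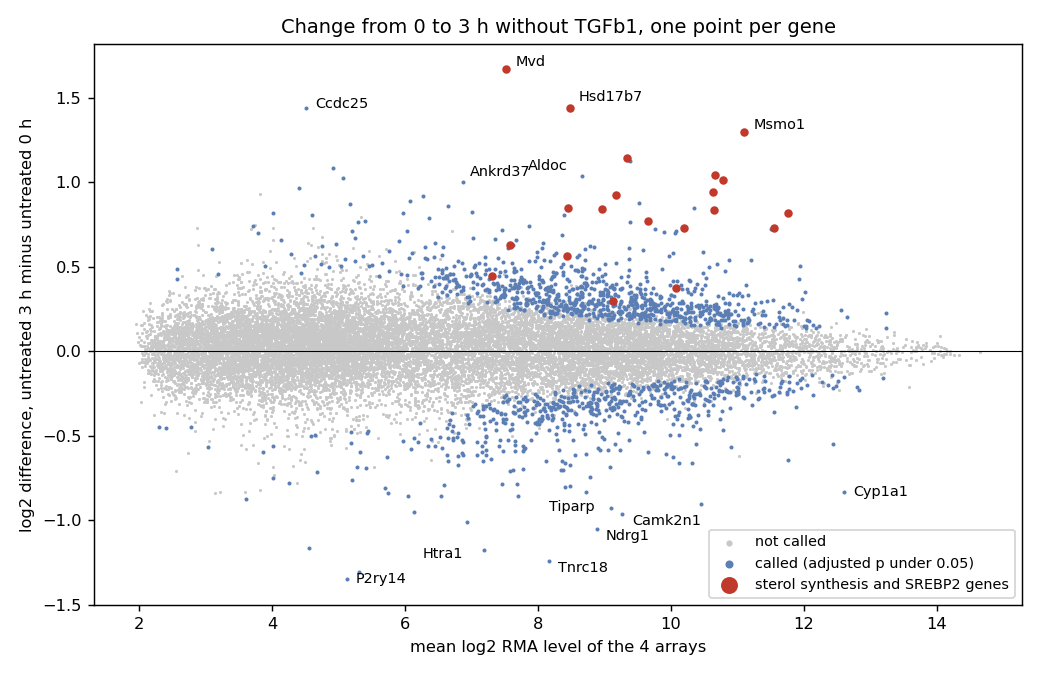
Log2 difference of untreated 3 h minus untreated 0 h cells (vertical) against the mean log2 RMA level of the 4 arrays (horizontal), 1 point for each of 18161 genes. Blue points were called and red points are the 20 sterol genes, which all lie above 0, with differences of 0.30 to 1.67.

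All 20 measured members of the sterol synthesis and SREBP2 list rose, by 0.30 to 1.67 on the log2 scale (1.23- to 3.18-fold), and their median difference was 0.84. The other 5 genes written in the list were not analysed here. In none of the 20 did the 3 h and 0 h arrays overlap, which was also true of each of the 1484 genes called and of 47.6% of all genes. The count of 20 stayed at 20 in each of the other settings and was 19 without 3 h replicate 1, where Srebf2 was lost (adjusted p = 0.0533). With both TGFb1-labelled 0 h arrays as the start in place of the untreated ones, all 20 again rose.

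The entry to the route rose. Hmgcs1, the HMG-CoA synthase, had levels of 11.99 and 11.84 at 3 h, against 11.19 and 11.19 at 0 h. Of the mevalonate kinases, Mvk was at 7.53 and 7.54 at 3 h, against 7.12 and 7.07 at 0 h. Pmvk, which adds the next phosphate, was at 9.52 and 9.76 at 3 h, against 8.72 and 8.71 at 0 h. In each of these 3 genes both 3 h arrays were above both 0 h arrays, and the adjusted p (limma) was 7.9e-08 for Hmgcs1, 0.0023 for Mvk and 5.9e-08 for Pmvk.

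Mvd, the decarboxylase that makes isopentenyl diphosphate, had the largest rise of any gene called. It stood at 8.21 and 8.50 at 3 h, against 6.67 and 6.71 at 0 h, a difference of 1.67 ± 0.18 (SE; 3.18-fold; adjusted p = 3.7e-06, limma). Both 3 h arrays were well above the 0 h pair, and the 3 h pair was itself the wider one. Idi1, the isomerase that follows, was at 11.13 and 11.23 at 3 h, against 10.17 and 10.11 at 0 h. Fdps, the farnesyl diphosphate synthase, was at 11.28 and 11.31 at 3 h, against 10.31 and 10.26 at 0 h. The differences of Idi1 and Fdps were 1.04 and 1.01, far beyond the gap between duplicates; with all probe sets of the gene averaged, Fdps was 0.59.

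Squalene and lanosterol steps followed the same pattern. Fdft1, the squalene synthase, was at 11.05 and 11.14 at 3 h, against 10.20 and 10.11 at 0 h. Its difference of 0.94 was 0.55 with all probe sets averaged. Sqle, the squalene epoxidase, was at 12.16 and 12.17 at 3 h, against 11.38 and 11.31 at 0 h. The lanosterol synthase Lss rose by 0.84 and the lanosterol demethylase Cyp51 by 0.83 on the log2 scale. Past lanosterol, Msmo1, the methylsterol oxidase, was at 11.82 and 11.69 at 3 h, against 10.58 and 10.34 at 0 h. Hsd17b7, the ketosterol reductase of the same demethylation, was at 9.19 and 9.20 at 3 h, against 7.77 and 7.75 at 0 h. With duplicates this close, Hsd17b7 had the lowest adjusted p of all genes (2.5e-11; difference 1.44 ± 0.06 SE, 2.71-fold). Nsdhl rose by 0.84, Tm7sf2 by 0.63, Sc5d by 0.73 and Ebp by 0.38. Dhcr7, a reductase of the final steps to cholesterol, was at 9.86 and 9.95 at 3 h, against 8.69 and 8.83 at 0 h, a difference of 1.14.

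The regulators in the list moved less than most of the enzymes. Insig1, which retains SCAP in the endoplasmic reticulum and is itself an SREBP target, was at 8.70 and 8.74 at 3 h, against 8.23 and 8.08 at 0 h. Srebf2, the gene of SREBP2, was at 9.30 and 9.26 at 3 h, against 8.97 and 9.0 at 0 h. Stard4, a carrier of cholesterol between membranes, rose by 0.77. Differences were 0.56 for Insig1 and 0.30, the smallest of the 20, for Srebf2.

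**Figure D2:**
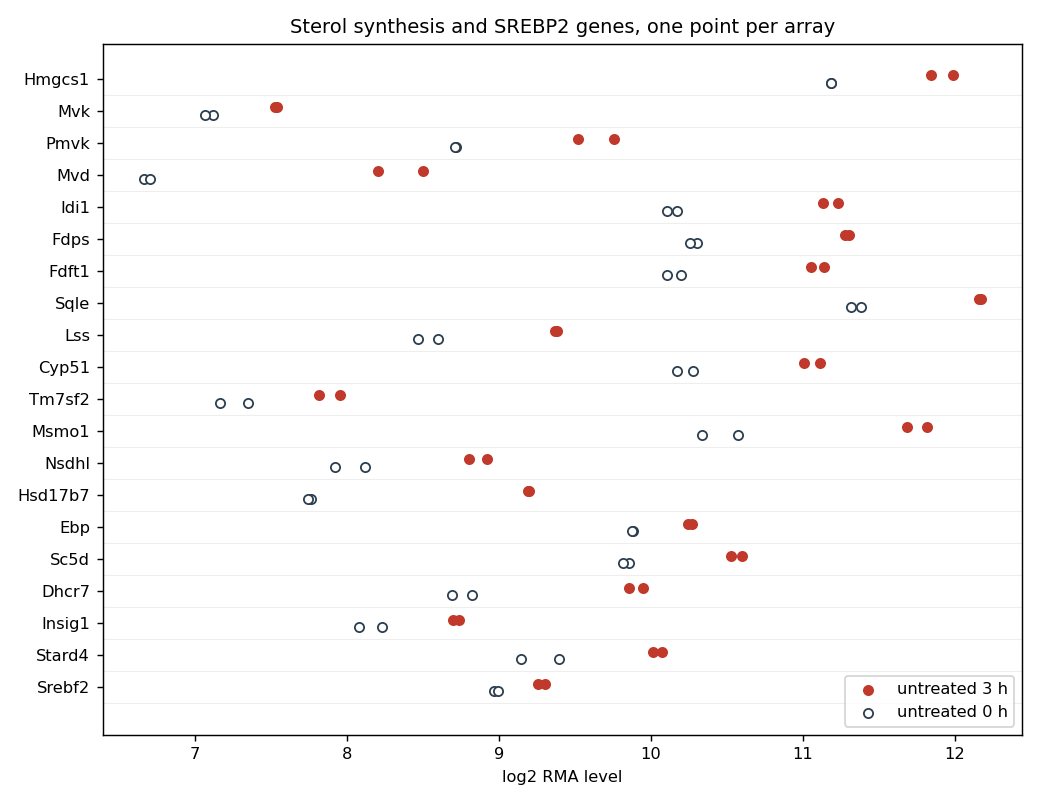
Log2 RMA levels (horizontal) of the 20 sterol genes in order of the route and then the regulators, 1 point per array, with 3 h untreated cells in filled red and 0 h untreated cells in open circles. In every row both 3 h points lie to the right of both 0 h points, and the gap is widest in Mvd.

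The neighbouring times show where this rise sits. At 1 h, 7 of the 20 sterol genes were called higher than at 0 h, among 34 genes called in all (0.187% of those tested). That count depended on the setting: with all probe sets averaged 4 genes were called in all, none of them a sterol gene; without the variance trend 1 gene was, a sterol gene; with only the arrays compared fitted none was; and 1 to 3 sterol genes were left without single arrays. Hsd17b7 averaged 7.76 at 0 h, 8.39 at 1 h, 9.19 at 3 h, 9.52 at 6 h and 9.04 at 10 h. Between 6 h and 3 h, 13 of the 20 were called higher, where 829 genes (4.56%) were called in either direction; over the other settings 9 to 15 of the 20 were. Averages at 6 h were above those at 3 h in 19 of the 20 genes, and those at 10 h were below those at 6 h in 19. These comparisons share the 0 h or 3 h arrays with the main one, and the count at 1 h fell to between 4 and 21 genes on leaving out single arrays.

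Genes of sterol export moved the other way or were not called. Abca1, the transporter that loads cholesterol onto apolipoprotein A-I and is switched on by the sterol-sensing receptor LXR, was at 10.02 and 9.93 at 3 h, against 10.56 and 10.72 at 0 h (difference -0.66, adjusted p = 3.5e-05, limma). Abcg1, a related transporter, was at 7.21 and 7.58 at 3 h, against 7.84 and 8.0 at 0 h. Its difference of -0.53 ranged from -0.71 to -0.34 on leaving out single arrays and its call was lost in 2 of those 4 repeats. Of the 11 measured genes of the LXR list these 2 were called, both lower (18.2%, against 8.17% of all genes). The other 9 were not, among them Srebf1, the gene of SREBP1, at 10.79 and 10.75 at 3 h, against 10.70 and 10.76 at 0 h.

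Fatty acid synthesis rose with sterol synthesis. Of 18 measured genes 12 rose and none fell, with a median difference of 0.32; the count was 9 to 11 on leaving out single arrays. Elovl6, an elongase of saturated fatty acids, was at 10.29 and 10.21 at 3 h, against 9.60 and 9.50 at 0 h. Fasn, the fatty acid synthase, was at 11.18 and 11.12 at 3 h, against 10.60 and 10.62 at 0 h. Gpam, which starts glycerolipid assembly, was at 11.00 and 10.91 at 3 h, against 10.46 and 10.42 at 0 h. The desaturase Fads2 rose by 0.60, Scd1 by 0.35 and the acetyl-CoA synthetase Acss2 by 0.82. With all probe sets averaged, the difference was 0.39 for Elovl6 and 0.53 for Acss2, both still called. None of the 12 was called at 1 h. Fatty acid oxidation had 1 call among 18 genes (5.56%, against 8.17% of all genes), Acadm, which rose by 0.27. None of 12 glucose responsive genes was called.

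**Figure D3:**
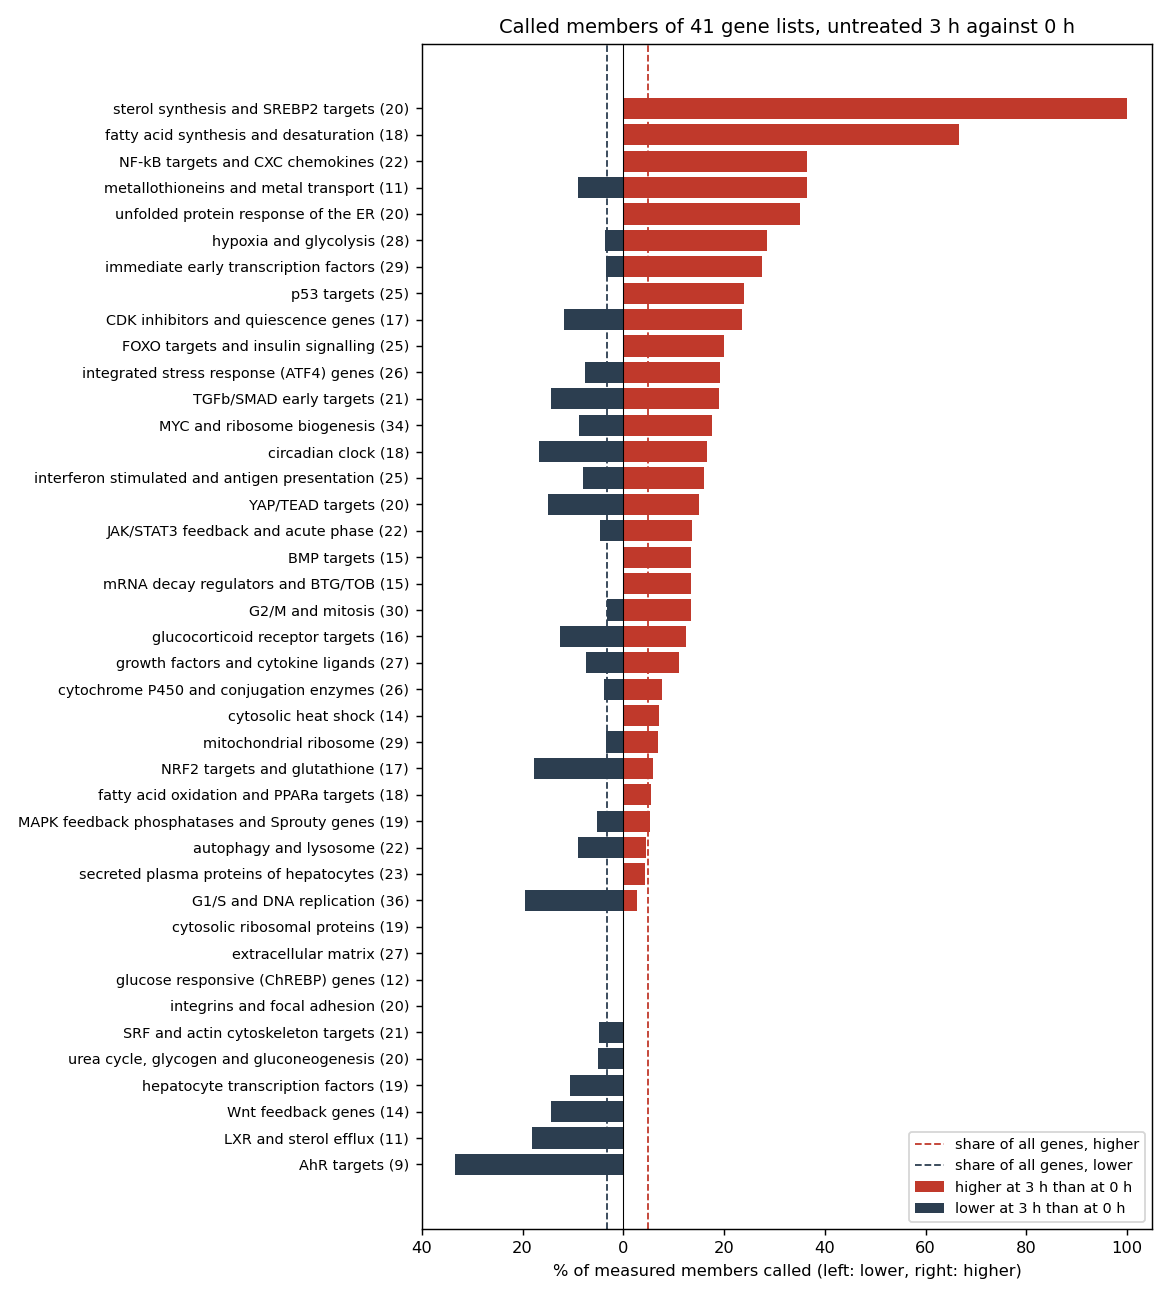
Share of the measured members of each of the 41 gene lists (number measured in brackets) called higher at 3 h, to the right, or lower at 3 h, to the left, than at 0 h in untreated cells. Dashed lines mark the shares of all genes, 4.96% higher and 3.21% lower; the sterol list reaches 100% and the fatty acid synthesis list is next, and these 2 are the lists with most of their members called.

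Outside lipid synthesis, the 15 largest rises held 7 more genes. Rdh11, a retinal reductase, was at 9.99 and 9.90 at 3 h, against 8.84 and 8.79 at 0 h, a rise of 1.13. Aldoc and Ankrd37 belong to the hypoxia and glycolysis list and are described with it. Ccdc25 was at 4.92 and 5.54 at 3 h, against 3.72 and 3.86 at 0 h. Prss8, a membrane-anchored serine protease, was at 5.41 and 5.75 at 3 h, against 4.52 and 4.59 at 0 h. The 3 h duplicates of Ccdc25 differed by more than those of Rdh11, and its SE of 0.24 was correspondingly larger. Hoga1 and C8b were called at 1.08 and 0.97, but Hoga1 ranged from 0.53 to 1.64 and lost its call in 2 of the 4 repeats without 1 array, and C8b lost it in all 4. Both calls also depended on the start: with the TGFb1-labelled 0 h arrays, Hoga1 was 0.14 (adjusted p = 0.854) and C8b 0.36 (0.561).

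Genes of glycolysis and the hypoxia response rose in part: 8 of 28 measured genes rose and 1 fell, with 6 to 7 rises on leaving out single arrays. In oxygen-starved cells HIF1 switches on these genes, and several also answer to other signals. Aldoc, an aldolase, was at 9.12 and 9.25 at 3 h, against 8.25 and 8.05 at 0 h (difference 1.04, or 0.56 with all probe sets averaged). Hk2, the inducible hexokinase, was at 9.77 and 9.76 at 3 h, against 8.94 and 9.06 at 0 h (0.77, adjusted p = 1.3e-07, limma). Ankrd37, an ankyrin repeat gene, was at 7.29 and 7.44 at 3 h, against 6.51 and 6.22 at 0 h (1.00). Vegfa, the endothelial growth factor, was at 8.34 and 8.23 at 3 h, against 7.72 and 7.67 at 0 h. Aldoc and Ankrd37 were higher again at 6 h than at 3 h, by 1.04 and 1.32. Ndrg1, also a member, went against them: it was at 8.36 and 8.37 at 3 h, against 9.50 and 9.33 at 0 h, and rose by 0.63 between 3 h and 6 h.

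The promoter of Ankrd37 is shown because ACGTG, the core letters of the HIF response element, searched on both strands, stands in capitals just before its start. The E-box CACGTG contains the same letters, but they are not part of one here.
Ankrd37 (chr8:45999851-46000000, minus strand): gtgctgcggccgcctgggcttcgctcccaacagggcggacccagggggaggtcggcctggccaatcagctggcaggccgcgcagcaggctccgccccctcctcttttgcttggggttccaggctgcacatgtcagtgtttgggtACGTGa
ACGTG was in 56.8% of the 37 windows found for the hypoxia list, its uncalled members included, against 19.6% of all windows. In the other lists searched the share ran from 0% (AhR targets) to 38.9% (unfolded protein response). The AhR core letters GCGTG were in 56.8% of the hypoxia windows as well, against 32.4% of all. They were in 71.4% of the 7 windows of the AhR list and in 72.2% of those of the unfolded protein response list. The 150 bases before the start of Tiparp, a gene of the AhR list, were searched for GCGTG too. They held no match and are not printed.

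**Figure D4:**
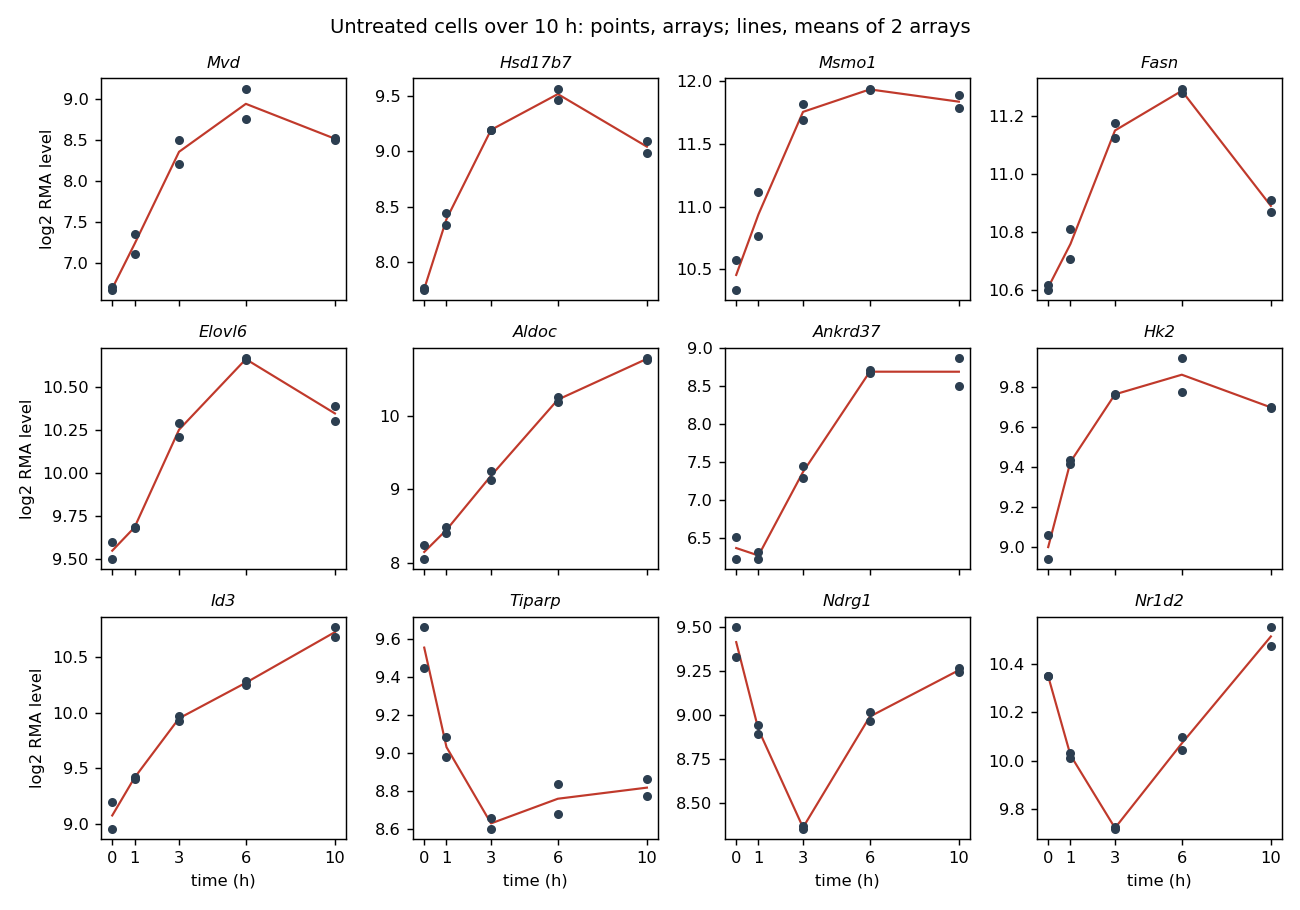
Log2 RMA levels of 12 genes in untreated cells (vertical, own scale per panel) against time in h (0, 1, 3, 6 and 10), with 1 point per array and lines through the means of the 2 arrays. The sterol and fatty acid genes peak at 6 h, Aldoc and Id3 go on to 10 h, and Ndrg1 and Nr1d2 are lowest at 3 h.

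Among transcription factors and signal targets, changes were smaller and spread over many lists. Id3 and Id1, BMP-induced proteins that block helix-loop-helix transcription factors, were called, both higher. They were the only 2 of 15 measured BMP genes called (13.3%, against 8.17% of all genes). Id3 was at 9.97 and 9.93 at 3 h, against 8.95 and 9.19 at 0 h. Id1 was at 11.49 and 11.46 at 3 h, against 10.91 and 10.96 at 0 h. Both rises, 0.88 and 0.54, kept their call in every repeat without 1 array.

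Of 29 immediate early transcription factors, 8 rose and 1 fell, and 4 to 6 rises were left when single arrays were left out. Atf3, a stress-induced factor, was at 7.84 and 7.90 at 3 h, against 7.36 and 7.43 at 0 h. Btg2, an antiproliferative gene, was at 10.47 and 10.49 at 3 h, against 10.13 and 9.99 at 0 h. Fosl2, a partner of JUN proteins, was at 8.80 and 8.84 at 3 h, against 8.24 and 8.45 at 0 h; its difference of 0.48 was 0.30 with all probe sets averaged. Fos itself, at 7.02 and 6.99 at 3 h against 6.75 and 6.72 at 0 h, was not called (adjusted p = 0.11, limma), nor was Egr1 (0.059). Klf2 fell by 0.54, a call lost without 3 h replicate 1 and without 0 h replicate 1; over the 4 repeats its difference ranged from -0.63 to -0.44.

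NF-kB targets and CXC chemokines had 8 rises and no fall among 22 genes, with 3 to 5 rises on leaving out single arrays. Nfkb2, a precursor of an NF-kB subunit and itself a target, was at 8.50 and 8.54 at 3 h, against 7.94 and 7.97 at 0 h. Its difference of 0.57 kept its call in each of those repeats and was 0.33 with all probe sets averaged. Relb (0.50) and the chemokine Cxcl3 (0.49) were called as well, but Relb was lost without 3 h replicate 2 (adjusted p = 0.0977) and Cxcl3 in 2 repeats (highest adjusted p = 0.0881).

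Amino acid and stress response genes gave 5 rises and 2 falls among 26 genes of the ATF4 list. That is 26.9% called, against 8.17% of all genes and 12.7% of those above the median of all values. In each repeat without 1 array 4 rises were left. Both falls, Asns and Cebpb, lost their calls in 3 of the 4 repeats. Chac1, which breaks down glutathione, was at 7.11 and 7.05 at 3 h, against 6.18 and 6.26 at 0 h (difference 0.86). Slc7a1, a carrier of cationic amino acids, was at 12.14 and 12.24 at 3 h, against 11.65 and 11.72 at 0 h. Trib3, a pseudokinase, rose by 0.33. In the unfolded protein response of the endoplasmic reticulum 7 of 20 genes rose, a count that fell to between 1 and 5 without single arrays. Creld2, an ER chaperone of that list, was at 9.58 and 9.65 at 3 h, against 9.33 and 9.28 at 0 h and kept its call in those repeats; the difference was 0.31.

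FOXO factors enter the nucleus when insulin and growth factor signalling is low. Of 25 measured genes of the FOXO list 5 rose and none fell (20.0% called, against 8.17% of all genes), with 4 to 5 rises without single arrays. Ddit4, a brake on mTORC1, was at 11.29 and 11.35 at 3 h, against 10.89 and 10.96 at 0 h. Bnip3, a mitophagy receptor, was at 10.40 and 10.43 at 3 h, against 9.86 and 9.57 at 0 h, and averaged 11.81 at 6 h. It is also counted among the rises of the hypoxia and glycolysis list. Well-known liver targets of the same factors were not called: Igfbp1 was at 6.14 and 6.54 at 3 h, against 6.33 and 6.19 at 0 h, and Irs2 at 7.88 and 7.69 at 3 h, against 7.73 and 7.76 at 0 h.

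Among 11 metallothionein and metal transport genes 4 rose and 1 fell, with 3 to 4 rises without single arrays, and the rises were zinc carriers. Slc39a10 was at 11.91 and 11.82 at 3 h, against 11.12 and 11.16 at 0 h (difference 0.73 ± 0.04 SE). Slc39a4 was at 10.70 and 10.73 at 3 h, against 10.31 and 10.20 at 0 h. Slc39a14 rose by 0.82, or 0.51 with all probe sets averaged. The remaining rise, 0.77, was less firm. Its call was lost in 2 of the 4 repeats without 1 array, and it was 0.27 in the setting that lowered it most. Metallothionein Mt2, which binds zinc and copper, was at 10.20 and 9.80 at 3 h, against 10.77 and 11.03 at 0 h. Its difference of -0.90 ranged from -1.10 to -0.71 without single arrays and lost its call in 3 of those 4 repeats; between 3 h and 6 h it fell by 1.78. Mt1 was at 10.86 and 10.56 at 3 h, against 11.20 and 11.47 at 0 h, and was not called (adjusted p = 0.059, limma).

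The 15 largest falls were of mixed kinds. P2ry14, a receptor for UDP-sugars, was at 4.60 and 4.29 at 3 h, against 6.13 and 5.47 at 0 h, a difference of -1.35 ± 0.20 (SE; 2.55-fold lower; adjusted p = 1.4e-04, limma). Tnrc18 was at 7.54 and 7.55 at 3 h, against 8.67 and 8.90 at 0 h. Htra1, a secreted serine protease, was at 6.54 and 6.64 at 3 h, against 8.10 and 7.45 at 0 h. In these genes the 0 h duplicates lay farther apart than the 3 h ones. Camk2n1, an inhibitor of CaM kinase II, was at 8.74 and 8.80 at 3 h, against 9.81 and 9.66 at 0 h. Ccdc68 was at 6.42 and 6.43 at 3 h, against 7.45 and 7.41 at 0 h. The difference was -0.97 for Camk2n1 and -1.01 for Ccdc68, with SEs of 0.06 and 0.08. Elac1, a tRNA processing enzyme, was 1.31 lower, the kinase Wnk4 0.95 lower and Cyp2s1 0.86 lower on the log2 scale. With all probe sets averaged, the difference was -0.67 for Tnrc18, against -1.24 with 1 probe set, and -0.73 for Elac1. Lrg1 and Cps1 also stood among the 15, at low levels: Lrg1 ranged from -1.41 to -0.92 and lost its call in 3 repeats without 1 array, and Cps1 ranged from -1.24 to -0.51 and lost it in 2. With the TGFb1-labelled 0 h arrays as the start, Lrg1 was -0.24 (adjusted p = 0.782).

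Targets of the aryl hydrocarbon receptor, a ligand-activated factor that induces its own repressors and the CYP1 enzymes, fell where they were called: 3 of 9 measured genes were lower and none higher, with 2 to 3 without single arrays. Tiparp, an ADP-ribosyltransferase that restrains the receptor, was at 8.60 and 8.65 at 3 h, against 9.66 and 9.45 at 0 h (difference -0.93, adjusted p = 6.4e-08, limma). Cyp1a1 was at 12.31 and 12.07 at 3 h, against 13.09 and 12.95 at 0 h. Cyp1b1 was at 5.21 and 5.39 at 3 h, against 6.00 and 6.22 at 0 h; this call was lost in 2 repeats, where the highest adjusted p was 0.113. Ahrr, the receptor's repressor, was at 2.78 and 2.92 at 3 h, against 2.80 and 2.45 at 0 h, and was not called. The median of the 9 genes, 0.02, was that of all genes.

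Of 17 measured NRF2 and glutathione genes 3 fell and 1 rose, and the 3 falls were left in each repeat without 1 array. Gclc and Gclm encode the subunits of the enzyme that limits glutathione synthesis. Gclc was at 9.15 and 9.07 at 3 h, against 9.66 and 9.61 at 0 h. Gclm was at 10.94 and 10.97 at 3 h, against 11.17 and 11.29 at 0 h. The difference was -0.52 for Gclc and -0.27 for Gclm, and both kept their calls without single arrays. Hmox1 and Nqo1, standard readouts of NRF2, were not called.

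The circadian list gave 3 rises and 3 falls among 18 genes, of which 1 to 2 rises and 1 fall were left without single arrays. Nr1d2 (REV-ERB beta), a clock repressor, was at 9.73 and 9.72 at 3 h, against 10.35 and 10.35 at 0 h. That fall of 0.63 was the one left in each repeat. At 6 h Nr1d2 averaged 10.07, between its 3 h and 0 h levels, and at 10 h it averaged 10.51, above both 0 h arrays. Arntl, the clock activator that Nr1d2 represses, was at 7.73 and 7.87 at 3 h, against 7.35 and 7.40 at 0 h, a call lost when all probe sets of the gene were averaged.

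Signalling ligands and receptors were called singly. Il6ra, the interleukin 6 receptor, was at 6.43 and 6.49 at 3 h, against 7.13 and 7.14 at 0 h. Pdgfa, a growth factor, was at 9.73 and 9.74 at 3 h, against 10.23 and 10.23 at 0 h. Lgr5, the R-spondin receptor and a Wnt target, was at 10.59 and 10.64 at 3 h, against 11.16 and 11.21 at 0 h. Usp18, which restrains interferon signalling, was at 10.53 and 10.55 at 3 h, against 10.96 and 11.06 at 0 h. All 4 fell, by 0.47 to 0.67, and all 4 kept their calls without single arrays. Pdgfa, at -0.49, was -0.31 with the TGFb1-labelled 0 h arrays as the start. Their lists were mixed, except the Wnt list, where 2 of 14 genes fell and none rose. Of 27 growth factor and cytokine ligand genes 3 rose and 2 fell. Of 25 interferon and antigen presentation genes 4 rose and 2 fell, and of 22 JAK/STAT3 and acute phase genes 3 rose and 1 fell.

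Genes of the cell cycle moved by small amounts. In the G1/S and DNA replication list 7 of 36 genes fell and 1 rose. That is 22.2% called, against 8.17% of all genes and 12.7% of those above the median of all values. The list's median difference was -0.11, against 0.02 over all genes, and 8 of the 36 differences were above 0. However, the falls called numbered 0 to 3 without single arrays, 0 without the trend in the variance prior and 11 when all 4 arrays at 0 h served as the start. Tk1, the thymidine kinase, was at 9.81 and 9.81 at 3 h, against 10.17 and 10.08 at 0 h, and was lost in 3 repeats (highest adjusted p = 0.108). E2f1 was the rise, at 8.52 and 8.40 at 3 h, against 8.04 and 7.93 at 0 h, and kept its call in them, though not when all probe sets of the gene were averaged. Of 30 mitotic genes 4 rose and 1 fell, with 1 to 2 rises left without single arrays. That is 16.7% called, against 12.7% of all genes above the median of all values, where all 30 lay. Mki67, the proliferation marker, was at 11.06 and 11.06 at 3 h, against 11.34 and 11.42 at 0 h, a call lost without 0 h replicate 2 (adjusted p = 0.0688).

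Lists of the differentiated hepatocyte and of structure had few calls or none. Of 23 secreted plasma protein genes 1 was called, and so were 3 of 26 cytochrome P450 and conjugation genes, 1 of 20 urea cycle, glycogen and gluconeogenesis genes and 2 of 19 hepatocyte transcription factors, against 8.17% of all genes. Of these calls Apoc3, Slco1b2, Cps1 and Prox1 were each lost in at least 2 of the 4 repeats without 1 array. Many of these genes were at low levels in this line: 11 of the 23 plasma protein genes and 16 of the 26 P450 genes averaged below the median of all values. None of 27 extracellular matrix genes, 20 integrin and focal adhesion genes or 19 cytosolic ribosomal protein genes was called. Calls depended on level across the whole table, with 12.7% of genes above the median of all values called and 0.605% of those at or below it.

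The same 3 h can be set beside the arm given TGFb1, whose cells went through the same change of medium. At 0 h the TGFb1-labelled and untreated arrays differed in no gene (0% called by limma; 735 genes at an unadjusted p under 0.05). The change from 0 to 3 h with TGFb1 differed from that without in 1561 genes (8.6%). This contrast shares the untreated 3 h and 0 h arrays with the main comparison, so the values of a gene in both are not independent. All 20 sterol genes averaged higher at 3 h than at 0 h with TGFb1 too, by a median of 0.58, against 0.84 without, and in 11 of the 20 the rise was smaller with TGFb1 by the test of the difference. For Msmo1 the difference of changes was -0.87 and for Hsd17b7 -0.57, while for Hmgcs1 (-0.12) and Cyp51 (0.03) the test was not passed.

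The 15 largest falls and rises were picked by the untreated change that this test subtracts. That choice alone favours higher values for the falls and lower values for the rises, so the counts that follow are descriptive. Among the 15 largest falls, 8 had a change that was higher with TGFb1 by that test, and in 6 both TGFb1 arrays at 3 h were above both untreated 0 h arrays. Camk2n1 averaged 10.92 at 3 h with TGFb1, against 8.77 at 3 h without and 9.74 at 0 h. Ccdc68 averaged 9.15 at 3 h with TGFb1, against 6.42 at 3 h without and 7.43 at 0 h. P2ry14 averaged 7.11 at 3 h with TGFb1, against 4.45 at 3 h without and 5.80 at 0 h. Among the 15 largest rises, 10 had a change that was lower with TGFb1 by the same test. Ankrd37 averaged 6.07 at 3 h with TGFb1, against 7.37 at 3 h without and 6.37 at 0 h. Of the early targets of TGFb and SMAD signalling, 3 of 21 fell without TGFb1 and remained called without single arrays, among them Skil, a SMAD repressor, at 8.07 and 7.95 at 3 h, against 8.51 and 8.33 at 0 h. Gadd45b, a stress-induced gene of the same list, was at 6.97 and 6.94 at 3 h, against 7.55 and 7.38 at 0 h; its call was lost when all probe sets of the gene were averaged. Ccn2, a matricellular protein gene that TGFb1 induces, was at 10.00 and 10.14 at 3 h, against 10.41 and 10.50 at 0 h. Another 4 of the 21 rose, of which 0 to 2 were left without single arrays. Smad7 was not called (8.26 and 8.25 at 3 h, against 8.32 and 8.43 at 0 h).

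**Figure D5:**
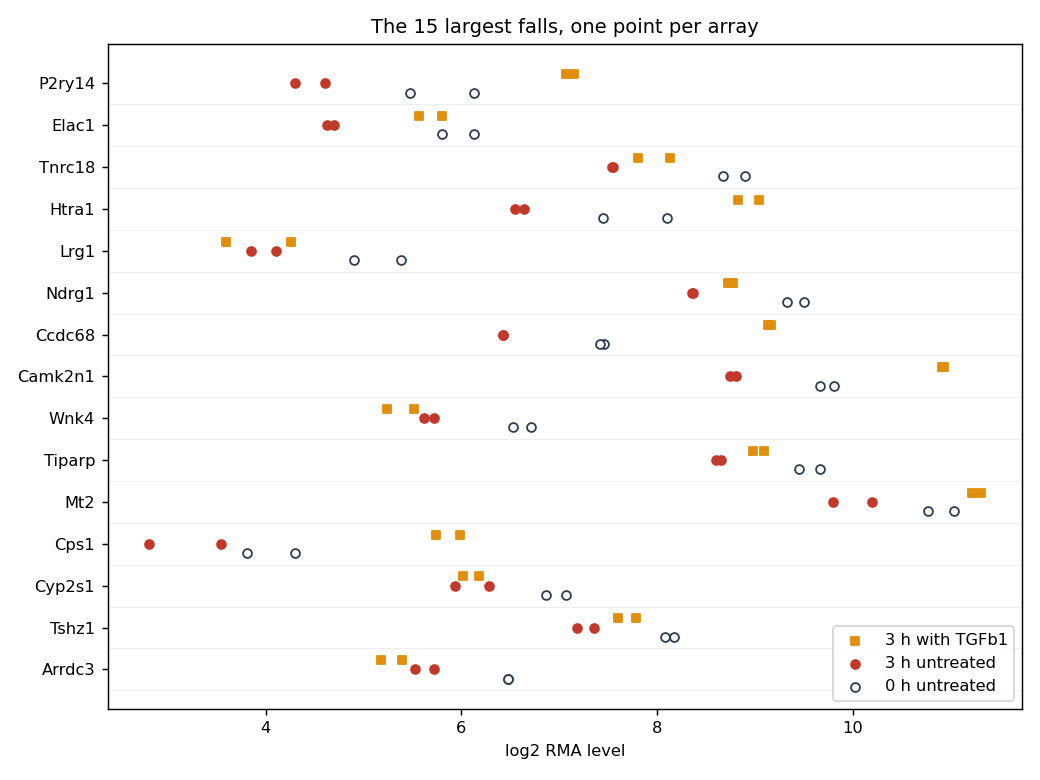
Log2 RMA levels (horizontal) of the 15 genes with the largest falls, 1 point per array, with 3 h TGFb1-treated cells as squares, 3 h untreated cells in filled red and 0 h untreated cells in open circles. Untreated 3 h points lie left of 0 h points in every row; the TGFb1 squares of P2ry14, Htra1, Ccdc68, Camk2n1, Mt2 and Cps1 lie to the right of both.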

How the data were processed

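Total RNA of Hepa1-6 cells was measured on Affymetrix mouse arrays, 20 in all, as biological duplicates per the labels' protocols. The authors deposited a table of log2 values made with RMA, per the submitters' processing notes, which name no version. Array medians lay between 5.15 and 5.21, and the number of arrays limits the precision. Of 45037 probe sets, 34945 had 1 gene, 932 several and 9160 none in the platform annotation; symbols were updated through Entrez IDs to RefSeq's GRCm38.p6 table, where 2 symbols were not found, and the brightest probe set stood for each gene.

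Group means over all 20 arrays (10 groups, 10 residual degrees of freedom) were fitted with limma 3.58.1 in R 4.3.3, eBayes with a trend, no covariate, and p-values adjusted over all 18161 genes. The script was tested on simulated data. Duplicate numbers were checked for pairing: deviations of same-numbered 3 h and 0 h arrays correlated at 0.045 (over 45 pairs of groups, -0.201 to 0.207), so the numbers were not taken as pairs. Named genes are the 15 largest rises and 15 largest falls among called genes whose groups do not overlap, plus, per list, up to 3 called members each way by adjusted p and up to 2 uncalled members that lead the list. The sterol list is given whole, and genes outside that rule were chosen after their values were seen. The members, the 41 lists and the tests were chosen with earlier results of these data known. Alternatives changed normalization, probe set choice, a filter on dim genes, the variance model, the arrays fitted, the 0 h arrays, a block for replicate number, and left out each array in turn.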

Additional observations from a re-analysis of the deposited data

Results flagged for a closer look

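A change from 0 to 3 h that differs between cells with and without TGFb1, by the test of that difference (limma, adjusted p below 0.05), marked 61 of the 117 genes named here. Values are the log2 change with TGFb1 minus the log2 change without it, 23 of them positive and 38 negative. They share the untreated 3 h and 0 h arrays with the main comparison, by which many of the genes were chosen. That choice favours values above 0 for falls and below 0 for rises. No explanation was tested.

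Sterol synthesis genes, which rose without TGFb1, had values below 0: Idi1 -0.41, Msmo1 -0.87, Hsd17b7 -0.57, Dhcr7 -0.45, Pmvk -0.58, Fdps -0.36, Fdft1 -0.28, Sqle -0.26, Lss -0.50, Ebp -0.26 and Stard4 -0.55. Lipid genes of the fatty acid lists did likewise, with Elovl6 -0.85, Gpam -0.26, Scd1 -0.32 and Acadm -0.25. Glycolysis, hypoxia, transport and stress genes that rose without TGFb1, with Rdh11, gave Ankrd37 -1.39, Aldoc -0.84, Hk2 -0.98, Rdh11 -0.69, Slc39a10 -0.96, Slc39a4 -0.59, Slc7a1 -0.54 and Creld2 -0.31. The other values below 0 were Afp -0.23, Id3 -0.81, Nr1d2 -0.45, Atf3 -0.37, Btg2 -0.72, Fos -0.48, Egr1 -0.61, Klf2 -1.15, Cxcl3 -2.52, Irs2 -0.49, Cyp1a1 -1.22, Usp18 -0.59, E2f1 -0.56, Bbc3 -0.96 and Cyp7b1 -0.39.

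Of genes that stood lower at 3 h than at 0 h without TGFb1, values above 0 were P2ry14 2.78, Htra1 2.35, Camk2n1 2.20, Ccdc68 2.71, Cps1 2.68, Mt2 1.34, Mt1 1.09, Ndrg1 0.39, Tiparp 0.44, Abcg1 0.64, Il6ra 0.82, Pdgfa 0.64, Gclm 0.47, Sgk1 0.82 and Cebpb 0.57. Early TGFb and SMAD targets, also lower at 3 h, gave Ccn2 3.24, Skil 3.02, Gadd45b 2.14 and Smad7 1.53. The lower 3 h levels of Mt1 and Smad7 were not called. The other values above 0 were Krt7 0.52, Id1 0.42, Fosl2 0.99 and Ddit4 0.85.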

How the results depend on the processing

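The 1484 calls between 3 h and 0 h numbered 868 without the variance trend and 621 to 839 on leaving out 1 of the 4 arrays; in the other settings they stayed within 1.5 times of the value given, from 1045 with all probe sets of a gene averaged to 2009 with all 4 arrays at 0 h as the start. Between 1 h and 0 h the 34 calls became 4 with probe sets averaged, 20 when each probe set was tested alone, 1 without the trend, 0 when only the arrays compared were fitted, and 4 to 21 without single arrays. Between 6 h and 3 h the 829 calls became 472 with probe sets averaged, 298 without the trend and 217 to 600 without single arrays; a further quantile normalization moved their split from 349 higher and 480 lower to 454 higher and 419 lower. The difference of changes with and without TGFb1 kept between 1164 and 2024 calls, 1194 to 1328 without single arrays, and the 0 h check gave 0 throughout. With the replicate number as a block, 1625 genes were called between 3 h and 0 h, where the labels do not say whether the numbers pair the arrays. Of 192 genes that were called and belong to a list or to the largest changes, 84 were called in every setting, and no called gene among them changed sign. With 2 arrays per group, differences near the median standard error of 0.125 were mostly not detectable, and low signals were rarely called. The cause of these shifts was not tested.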

Other observations

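p53 targets were called in 1 direction: 6 of 25 rose and none fell between 0 h and 3 h without TGFb1, with 2 to 4 rises left without single arrays. That is 24.0% called, against 8.17% of all genes and 12.7% of those above the median of all values, where all 25 lay. Btg2, also counted among the immediate early rises, kept its call in each of these repeats and rose by 0.42. Bbc3, a pro-apoptotic BCL2 family member, was at 8.42 and 8.43 at 3 h, against 7.93 and 8.04 at 0 h, and lost its call in 2 of the 4 repeats.

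Genes of ribosome assembly split. Of 34 measured members of the MYC and ribosome biogenesis list, 6 rose (3 to 5 without single arrays) and 3 fell (1 to 2). That is 26.5% called, against 8.17% of all genes and 12.7% of those above the median of all values, where all 34 lay. Rcl1, a nucleolar processing factor, was at 10.44 and 10.45 at 3 h, against 10.17 and 10.15 at 0 h. Odc1, the enzyme that starts polyamine synthesis, was at 12.04 and 11.99 at 3 h, against 12.29 and 12.25 at 0 h. Both kept their calls without single arrays. In bile acid metabolism, Cyp7b1, the oxysterol hydroxylase, was at 8.96 and 8.85 at 3 h, against 8.43 and 8.40 at 0 h, a rise of 0.49.

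Stat3 (0.37) and Lbp, an acute phase protein gene (0.32), rose among 22 genes of the JAK/STAT3 and acute phase list, where 3 rose and 1 fell and 2 rises were left without single arrays; Stat3 was 0.13 and not called with all probe sets averaged (adjusted p = 0.382, limma). Sgk1, a kinase induced by glucocorticoids and serum, was at 10.40 and 10.35 at 3 h, against 10.71 and 10.75 at 0 h. It had been lower already at 1 h than at 0 h, by 0.29, though calls at 1 h depended on the setting. The list of glucocorticoid receptor targets was mixed between 0 h and 3 h, with 2 rises and 2 falls among 16 measured genes. That is 25.0% called, against 8.17% of all genes.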
